A study of Mus musculus with 8 samples.

Results

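Genes of lysosomal acidification, lysosomal proteolysis, endosomal sorting and vesicle traffic were examined in mouse tibialis anterior, the muscle that lifts the foot, in cancer cachexia, the wasting of muscle that goes with a tumour. Members were chosen by gene symbol from 2 deposited tables of called genes: the Atp6v genes (V-ATPase subunits), the cathepsins written as Cts and 1 letter without Ctsl, and symbols of Lamp, Vps, Snx or Rab followed by a digit. This gave 63 genes of the 6028 genes listed in either table. Of these, 39 were among the 4334 genes of the 4T1 table, 53 were among the 4832 genes of the C26m2 table, and 29 were in both.

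The study had 4 groups of 2 libraries. Cachectic Balb/c mice carried metastases of 4T1, a mouse breast cancer line, and were set against healthy Balb/c mice. Cachectic CD2F1 mice carried metastases of C26m2, a mouse colon cancer line, and were set against healthy CD2F1 mice. All mice were 12 to 14 weeks old. Tumours carrying luciferase had been cut out 2 to 3 weeks after the cells were injected, and the mice were killed at 5 weeks, once imaging had shown metastasis and cachexia had appeared. Nothing in the labels records mock injection or mock surgery in the healthy mice, so effects of cancer and of surgery cannot be told apart. No genetic alteration of the mice is recorded. The groups with metastases are called tumour-bearing here, and 4T1-bearing or C26m2-bearing muscle stands for the muscle of mice with those metastases.

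The lysosome is the acid compartment in which a cell breaks down proteins, lipids and sugars. The V-ATPase pumps protons into it, and its cytosolic V1 sector splits ATP while its membrane V0 sector carries the protons. Cathepsins are its proteases, and Lamp proteins line the inner face of its membrane. Vps and Snx proteins build the complexes that sort cargo between endosomes, Golgi and lysosome. Rab proteins are small GTPases that each mark a set of membranes and recruit tethers and motors to it. In skeletal muscle the autophagy-lysosome route takes up bulk cytosol and organelles and is known to be active in atrophy, beside the proteasome.

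Values are the authors' FPKM (fragments scaled to transcript length and to library size), which the tables give once per group, so no spread between libraries can be shown, and sequencing depth is unknown. A gene counts as listed when a table holds it, which it does at a q-value (p-value adjusted over the genes tested) of 0.05 or less in the authors' Cuffdiff comparison. The log2 ratio is that of tumour-bearing over healthy FPKM. Genes outside a table are not called unchanged. The labelled tissue was visible in its fibre genes. Of 17 such markers, 3 were listed in 4T1, all lower, and 7 in C26m2, 2 higher and 5 lower. The summed FPKM of the 3 listed in 4T1 was 4709 in 4T1-bearing muscle and 26078 in healthy Balb/c muscle. That of the 7 listed in C26m2 was 18542 in C26m2-bearing muscle and 37020 in healthy CD2F1 muscle. Unlisted fibre genes are not in these sums, so they do not give the fibre RNA as a whole. Most of both 4T1 sums came from 1 listed gene, the fast-fibre light chain gene Mylpf. It had 3285 FPKM in 4T1-bearing muscle and 13985 FPKM in healthy Balb/c muscle.

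The promoters of several members that rose share a sequence, and these stretches are shown first because they go with the sorting, acidification and protease genes described afterwards. The CLEAR element, TCACGTGA with a G before it and a C after it, is a site bound by the MiT/TFE family of transcription factors, which includes TFEB, and its core is the E-box CACGTG. Promoter windows of 300 bases, 250 before and 50 from the annotated start on, came from RefSeq (build GRCm38.p6) and were found by symbol for 49 of the 63 members. A gene with several windows counts once, if any of them holds the motif. Each stretch below reads 5′ to 3′ along the gene, and capitals mark each match to CACGTG, to TCACGTGA or to the full element, whichever is the longest. A base of the element beside a shorter match stays in lower case.
Vps16, chr2:130424271-130424338, plus strand: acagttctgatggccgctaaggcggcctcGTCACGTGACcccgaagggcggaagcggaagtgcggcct
Vps33a, chr5:123572991-123573058, minus strand: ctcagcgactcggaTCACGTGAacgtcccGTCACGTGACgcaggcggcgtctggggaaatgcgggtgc
Vps26a, chr10:62486713-62486780, minus strand: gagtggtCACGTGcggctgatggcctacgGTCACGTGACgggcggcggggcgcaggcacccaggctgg
Rab5a, chr17:53479108-53479175, plus strand: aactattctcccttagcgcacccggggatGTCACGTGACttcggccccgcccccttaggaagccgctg
Atp6v0d1, chr8:105566031-105566098, minus strand: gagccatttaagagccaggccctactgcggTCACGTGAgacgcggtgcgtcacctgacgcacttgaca
Atp6v0e, chr17:26676368-26676435, plus strand: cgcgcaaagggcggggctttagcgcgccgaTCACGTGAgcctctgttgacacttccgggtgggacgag
Ctsd, chr7:142387889-142387956, minus strand: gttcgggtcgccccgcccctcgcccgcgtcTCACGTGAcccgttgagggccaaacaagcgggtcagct

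All 7 of these genes were higher in tumour-bearing muscle in every table that listed them. Vps33a, Vps26a and Rab5a were listed in C26m2 alone, so Vps16 was the only gene with the full element listed in 4T1. The counts of members that follow are pooled over both tables. The full CLEAR element stood in the windows of Vps16, Vps33a, Vps26a and Rab5a, that is in 4 of the 35 higher members with a window (11.4%) and in 0 of the 14 lower members with one. The same 10 letters were found for 0.370% of all 27025 genes with a window and for 2 of 84 annotated family members that neither table lists (2.38%). With 1 base less on each side, TCACGTGA was found for 7 of the 35 higher members (20.0%), 0 of the 14 lower members, 4 of the 84 unlisted members (4.76%) and 1.12% of all genes. The bare E-box CACGTG, which lies within both longer motifs, was found for 11 higher members (31.4%), 2 lower members (14.3%) and 8.09% of all genes. All genes listed higher held TCACGTGA in 2.54% of cases in the 4T1 table and in 3.02% of cases in the C26m2 table, and all genes listed lower in 0.649% and 0.799% of cases. They held the full element in 0.906% and 1.14% of cases when listed higher and in 0.0721% and 0.218% when listed lower. A list of lysosomal hydrolases and their activators, described below, had 36 genes with a window. Of these, 0 held the full element, 3 (8.33%) held TCACGTGA and 9 (25.0%) held CACGTG. All 3 motifs read the same on both strands.

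The shorter motif TCACGTGA lay close to the start in several of these genes. In Vps33a there were 2 copies of TCACGTGA, whose first bases lay at -29 and -13 from the start, and in Vps16 it lay at -19. In Atp6v0d1 it lay at -4 and in Atp6v0e at 2 bases past the start. It lay further off in Rab5a, at -96, and in Vps26a, at -152 and -183 from 2 annotated starts. In Atp6v0d1, Atp6v0e and Ctsd it was not part of the full element. In Ctsd, the most abundant member, it lay at -99, with a second E-box at the far end of the window at -245. The whole Ctsd window (chr7:142387778-142388077, minus strand) shows both in capitals.
Ctsd: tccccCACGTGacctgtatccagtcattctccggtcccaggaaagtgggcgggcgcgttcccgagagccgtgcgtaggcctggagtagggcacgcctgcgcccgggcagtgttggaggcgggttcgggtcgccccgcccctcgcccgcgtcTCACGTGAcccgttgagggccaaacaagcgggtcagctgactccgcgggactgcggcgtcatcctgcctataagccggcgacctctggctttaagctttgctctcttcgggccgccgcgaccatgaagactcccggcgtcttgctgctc
A FoxO element (GTAAACA, either strand) was found in no member's window. It was found for 4.05% of all genes and for 6 of the 84 unlisted family members (7.14%). All genes listed higher held it in 3.50% of cases in 4T1 and 3.52% in C26m2, and all genes listed lower in 2.81% and 3.12%. A palindromic glucocorticoid response element (AGAACA and TGTTCT with 3 bases between them) was in no member's window either, but only 3 genes in all held it. With 49 members, absence at such low shares cannot set the members apart from other genes. A match or its absence in these windows is a description of their letters and shows no binding.

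Across the families, most listed members were higher in tumour-bearing muscle. In 4T1-bearing muscle 30 of 39 listed members were higher and 9 lower, that is 76.9% higher, where 53.1% of all listed genes were higher and 46.9% lower. In C26m2-bearing muscle 39 of 53 were higher and 14 lower, that is 73.6% higher, where 58.9% of all listed genes were higher and 41.1% lower. The tables listed 32.8% of about 13218 genes tested in the 4T1 comparison (17.4% higher, 15.4% lower) and 36.8% of about 13121 in the C26m2 comparison (21.7% higher, 15.1% lower). How many members were tested is not known. Of the 178 protein-coding genes of the reference annotation that fit the symbols, 39 (21.9%) were listed in 4T1 and 53 (29.8%) in C26m2, against 19.0% and 21.2% of all annotated protein-coding genes.

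The rises were of modest size. Higher members had a median log2 ratio of 1.15 in 4T1-bearing muscle, against 1.48 over all genes listed higher, and of 0.87 in C26m2-bearing muscle, against 1.14. Lower members had median log2 ratios of -1.46 and -1.34, against -1.63 and -1.38 over all genes listed lower. In the authors' deposited tables, 11 of 39 members of the 4T1 comparison had the smallest p-value, 5e-05, against 39.8% of all listed genes, and 17 of 53 members of the C26m2 comparison, against 42.6%. A q-value of 0.01 or less in the authors' deposited tables was held by 23 of 39 members in 4T1, against 68.0% of all listed genes, and by 36 of 53 in C26m2, against 71.0%. An absolute log2 ratio of 1 or more was found for 28 of 39 members in 4T1, against 85.2% of all listed genes, and for 27 of 53 in C26m2, against 64.8%. Among members past that ratio, 22 of 28 (78.6%) were higher in 4T1, where 52.1% of all such listed genes were. In C26m2 they were 15 of 27 (55.6%), close to the 54.6% of all such listed genes, so the excess of higher members there rested on changes smaller than that.

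The families differed in how they split. The share higher over all listed genes was 53.1% in 4T1 and 58.9% in C26m2. All listed Vps genes were higher, 5 of 5 in 4T1 and 8 of 8 in C26m2, as was the single listed Lamp gene. V-ATPase subunits were higher in 6 of 7 and in 6 of 6 cases. Sorting nexins were higher in 6 of 8 and 6 of 9 cases, Rab GTPases in 7 of 10 and 14 of 20, and the Rab-named partner proteins in 3 of 4 and 2 of 3. The cathepsins split, with 2 of 4 higher in 4T1 and 2 of 6 higher in C26m2. These are counts of the authors' calls on few genes, and the families were not tested against each other. Most annotated genes of each family were not listed. Listed in 4T1 and C26m2 were 14.3% and 22.9% of 35 annotated Vps genes and 25% of 4 Lamp genes in each. The shares were 30.4% and 26.1% of 23 V-ATPase genes, 26.7% and 30% of 30 Snx genes, and 23.5% and 35.3% of 17 cathepsins. They were 16.9% and 33.9% of 59 Rab GTPases and 40% and 30% of 10 partner proteins, against 19.0% and 21.2% of all protein-coding genes. Among members with an absolute log2 ratio of 1 or more in C26m2, 1 Snx gene was higher and 2 were lower, and 6 Rab GTPases were higher and 5 lower.

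**Figure D1:**
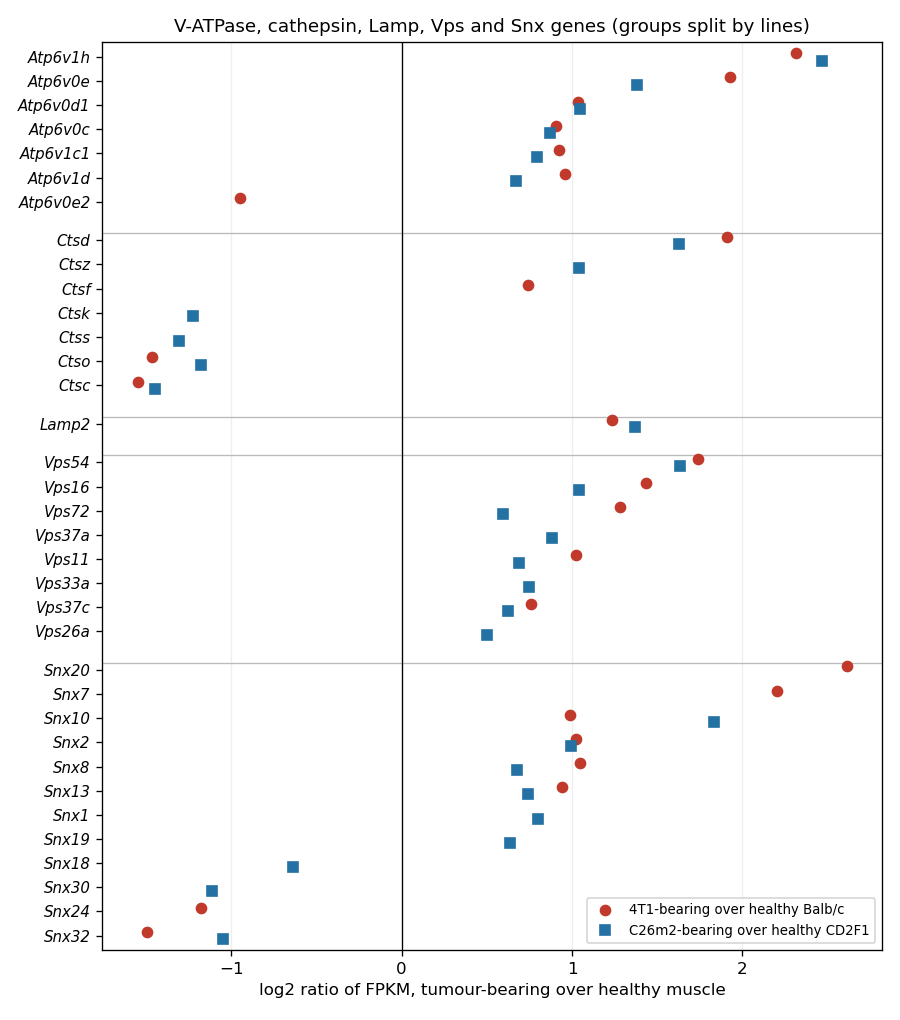
Log2 ratio of group FPKM, tumour-bearing over healthy muscle, for each listed V-ATPase, cathepsin, Lamp, Vps and Snx gene (rows), as circles for 4T1 and squares for C26m2; a missing symbol means that the table does not list the gene. All 8 Vps genes lie right of 0, while 4 of the 7 cathepsins (Ctsk, Ctss, Ctso and Ctsc) lie left of it.

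Subunits of both V-ATPase sectors rose, and the regulatory V1 subunit gene Atp6v1h changed most. Atp6v1h had 37.2 FPKM in 4T1-bearing muscle and 7.47 FPKM in healthy Balb/c muscle, a 4.98-fold rise. It had 38.6 FPKM in C26m2-bearing muscle and 6.99 FPKM in healthy CD2F1 muscle, a 5.52-fold rise. In the authors' deposited tables its q-value was 0.000382 in the 4T1 comparison and 0.000319 in the C26m2 comparison, the smallest in each table. That smallest value was shared by 39.8% of listed genes in 4T1 and 42.6% in C26m2. Atp6v1h was the least abundant listed subunit in healthy muscle of both strains, but in tumour-bearing muscle of both models it was above Atp6v1c1. The remaining V1 subunits rose less. Atp6v1c1, a stator subunit, had 28.8 against 15.2 FPKM in 4T1-bearing and healthy Balb/c muscle and 29.1 against 16.8 FPKM in C26m2-bearing and healthy CD2F1 muscle. Atp6v1d, part of the central rotor shaft, had 66.8 against 34.4 FPKM in the 4T1 comparison and 57.8 against 36.2 FPKM in the C26m2 comparison.

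In the V0 sector, the gene of the proton-carrying ring subunit, Atp6v0c, was the most abundant listed V-ATPase gene. It had 196 FPKM in 4T1-bearing muscle and 105 FPKM in healthy Balb/c muscle, and 162 FPKM in C26m2-bearing muscle and 88.6 FPKM in healthy CD2F1 muscle. Its rises were 1.87-fold and 1.83-fold. Atp6v0d1, whose product couples the ring to the rotor, was close to equal in both models, at 38.3 against 18.7 FPKM in the 4T1 comparison and 38.2 against 18.5 FPKM in the C26m2 comparison. The small membrane subunit e has 2 genes, and they went opposite ways in 4T1-bearing muscle. Atp6v0e rose 3.80-fold, with 87.5 FPKM in 4T1-bearing muscle and 23.0 FPKM in healthy Balb/c muscle. Atp6v0e2 fell, with 12.1 FPKM in 4T1-bearing muscle and 23.4 FPKM in healthy Balb/c muscle, and was not listed in the C26m2 table. Healthy Balb/c muscle held about equal levels of both e genes, while 4T1-bearing muscle held more Atp6v0e. In C26m2-bearing muscle Atp6v0e had 54.9 FPKM, against 21.0 FPKM in healthy CD2F1 muscle.

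**Figure D2:**
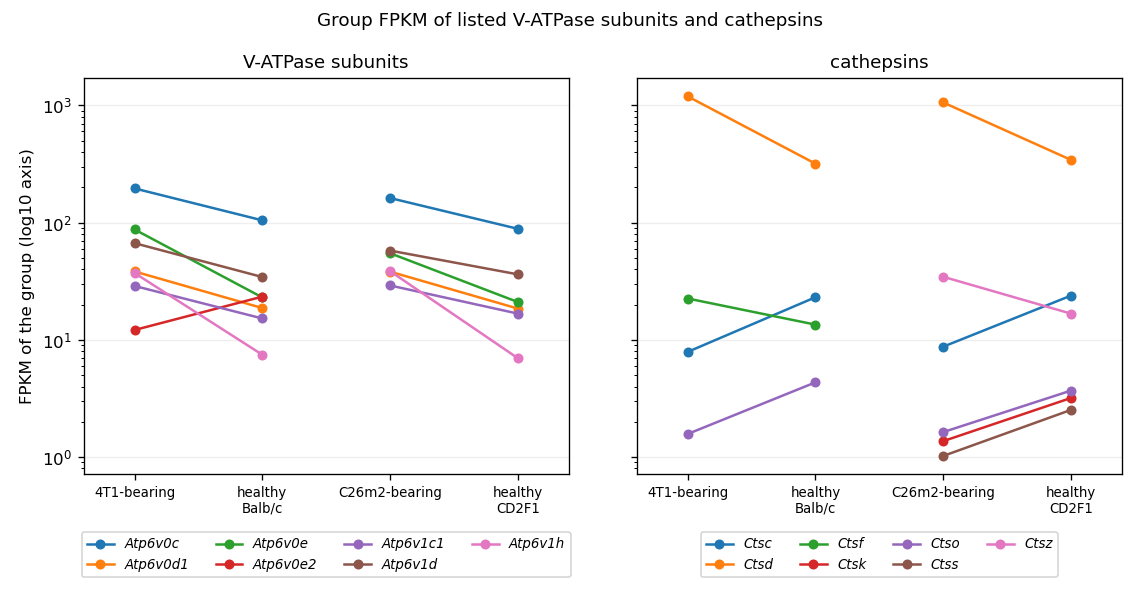
Authors' group FPKM (log10 axis) of each listed V-ATPase subunit (left) and cathepsin (right); each point is 1 group value and each line joins tumour-bearing muscle to its healthy control. Most V-ATPase lines slope down from tumour-bearing to healthy muscle, Atp6v0e2 slopes up, and Ctsd stands above every other cathepsin in all 4 groups.

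Other V-ATPase genes without the Atp6v symbol were mostly not listed, 2 of 12 being in the 4T1 table and 3 in the C26m2 table. Dmxl2, which encodes a rabconnectin that helps assemble the pump, rose 8.55-fold in 4T1, with 9.84 FPKM in 4T1-bearing muscle and 1.15 FPKM in healthy Balb/c muscle, and 5.89-fold in C26m2. Its partner gene Wdr7 fell, with 2.08 against 6.63 FPKM in the 4T1 comparison and 4.49 against 7.0 FPKM in the C26m2 comparison. Tmem199, a pump assembly factor gene, was listed higher in C26m2 only, with 17.7 against 8.72 FPKM. So the 2 rabconnectin-complex genes moved in opposite directions in both models.

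Among cathepsins, the aspartic protease gene Ctsd rose and made up nearly all of the listed cathepsin FPKM. It had 1195 FPKM in 4T1-bearing muscle and 318 FPKM in healthy Balb/c muscle, a 3.75-fold rise. In the other model it had 1060.3 FPKM in C26m2-bearing muscle and 343 FPKM in healthy CD2F1 muscle, a 3.09-fold rise. Ctsd took 97.4% of the summed FPKM of listed cathepsins in 4T1-bearing muscle and 88.6% in healthy Balb/c muscle, and 95.7% in C26m2-bearing muscle and 87.3% in healthy CD2F1 muscle. Unlisted cathepsins are not in these sums.

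The listed cysteine cathepsins went mostly the other way. Ctsc, a dipeptidyl peptidase that activates granule proteases of immune cells, fell 2.93-fold in 4T1, with 7.90 FPKM in 4T1-bearing muscle and 23.1 FPKM in healthy Balb/c muscle. It fell 2.73-fold in C26m2, with 8.75 FPKM in C26m2-bearing muscle and 23.8 FPKM in healthy CD2F1 muscle. Ctso fell too, at 1.58 against 4.34 FPKM in the 4T1 comparison and 1.63 against 3.69 FPKM in the C26m2 comparison. Listed lower in C26m2 alone were Ctss, which trims the invariant chain of MHC class II in antigen-presenting cells, with 1.02 against 2.53 FPKM, and Ctsk, a collagenase best known from osteoclasts, with 1.37 against 3.19 FPKM. Each of these 4 genes was under 25 FPKM in every group for which it is listed. The 2 cysteine cathepsin genes that rose were each listed once: Ctsf in 4T1 with 22.5 against 13.5 FPKM, at a q-value of 0.045 in the authors' deposited table, and Ctsz, a carboxypeptidase, in C26m2 with 34.5 against 16.8 FPKM.

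Markers of cell types known for these cathepsins moved too. In whole muscle, fewer cells of a type and less RNA per cell cannot be told apart. Of 20 macrophage markers, 11 were listed in 4T1, 6 higher and 5 lower, with summed FPKM of 124 in 4T1-bearing muscle and 20.8 in healthy Balb/c muscle. In C26m2 12 were listed, 2 higher and 10 lower, with sums of 45.2 FPKM in C26m2-bearing muscle and 66.9 FPKM in healthy CD2F1 muscle. Of 16 fibroblast markers, all 13 listed in 4T1 were lower, with sums of 166 against 797 FPKM, and all 14 listed in C26m2, with sums of 198 against 715 FPKM. Of 18 neutrophil markers, all 8 listed in 4T1 were higher, with sums of 2153 against 3.96 FPKM, and all 6 listed in C26m2, with sums of 111 against 8.91 FPKM. Of 14 lymphocyte markers, 3 were listed in 4T1, 2 higher and 1 lower, with sums of 20.5 against 105 FPKM. The 2 higher had a median log2 ratio of 3.03 and the lower had -6.41, so that 1 gene made the sum lower. The single one listed in C26m2 was lower, with 2.95 against 33.7 FPKM. No listed gene had a value of 0. The part of these markers in the cathepsin values was not tested.

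Lamp2, whose product is the receptor of chaperone-mediated autophagy and whose loss in humans causes Danon disease of heart and skeletal muscle, was the single Lamp gene listed. It had 115 FPKM in 4T1-bearing muscle and 49.0 FPKM in healthy Balb/c muscle, a 2.36-fold rise, and 115 FPKM in C26m2-bearing muscle and 44.4 FPKM in healthy CD2F1 muscle, a 2.58-fold rise. Its level was thus close to equal in both kinds of tumour-bearing muscle. Of 29 other lysosomal membrane genes, 13 were listed in 4T1 (9 higher, 4 lower, 69.2% higher) and 15 in C26m2 (10 higher, 5 lower, 66.7% higher). Of all listed genes, 53.1% were higher in 4T1 and 58.9% in C26m2. Npc1, the cholesterol exporter of the lysosome, had 41.9 FPKM in 4T1-bearing muscle and 4.38 FPKM in healthy Balb/c muscle, and 99.4 FPKM in C26m2-bearing muscle and 10.5 FPKM in healthy CD2F1 muscle. Litaf, of late endosome membranes, rose 4.75-fold in C26m2. Cd68, which is also a macrophage marker, had 51.8 against 2.64 FPKM in the 4T1 comparison and 12.9 against 3.24 FPKM in the C26m2 comparison. Laptm4b and Tmem55a, a phosphoinositide phosphatase gene, fell in both tables, Laptm4b 2.64-fold in 4T1 and 2.50-fold in C26m2, and Tmem55a 2.84-fold and 2.02-fold. Slc29a3, a nucleoside transporter gene, fell 2.24-fold in C26m2.

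The hydrolases that share the lysosome with the cathepsins split as well. Of 45 hydrolase and activator genes, 15 were listed in 4T1 (9 higher, 6 lower, 60.0% higher) and 22 in C26m2 (8 higher, 14 lower, 36.4% higher). Gaa, the acid glucosidase that breaks down glycogen and is missing in Pompe disease, was the most abundant of them. It had 264 FPKM in 4T1-bearing muscle and 49.0 FPKM in healthy Balb/c muscle, and 244 FPKM in C26m2-bearing muscle and 52.8 FPKM in healthy CD2F1 muscle. Naglu, which acts on heparan sulfate, rose 3.53-fold in 4T1, and Idua, which acts on the same glycan, rose 4.10-fold in C26m2. Among the falls, Arsb had 0.272 against 1.19 FPKM in the 4T1 comparison and 0.277 against 1.20 FPKM in the C26m2 comparison. Aga, a glycoprotein amidase, fell 2.69-fold in 4T1, and Manba, a mannosidase, fell 3.77-fold in C26m2. A summed level over the listed hydrolases followed Gaa, being 429.9 FPKM in 4T1-bearing muscle and 170.4 FPKM in healthy Balb/c muscle, and 408 FPKM in C26m2-bearing muscle and 199 FPKM in healthy CD2F1 muscle.

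Genes of the MiT/TFE factors, of mTORC1 and of their regulators moved in both directions. Of 30, 14 were listed in 4T1 (7 higher, 7 lower) and 14 in C26m2 (9 higher, 5 lower). Tfeb, Mitf, Rragc and Sesn3 are named here after their values were seen. Tfeb itself was listed in 4T1 alone and was lower, with 17.3 FPKM in 4T1-bearing muscle and 28.9 FPKM in healthy Balb/c muscle, and its relative Mitf was higher in both tables, with 6.60 against 3.47 FPKM in the 4T1 comparison and 6.90 against 4.39 FPKM in the C26m2 comparison. Flcn, which encodes folliculin, had 77.0 against 24.3 FPKM in 4T1 and 74.1 against 23.8 FPKM in C26m2. The largest rise was that of Sesn1, a leucine sensor gene, with 359 FPKM in 4T1-bearing muscle and 17.9 FPKM in healthy Balb/c muscle and 251 FPKM in C26m2-bearing muscle and 10.8 FPKM in healthy CD2F1 muscle. The Rag GTPase genes split, Rragc rising 2.26-fold in 4T1 and 2.25-fold in C26m2 and Rragd falling 2.58-fold and 1.72-fold. Rragb fell 2.56-fold in 4T1, and Mtor, the kinase itself, rose 4.04-fold in 4T1 and 2.51-fold in C26m2. The largest fall on this list in C26m2 was that of Sesn3, a paralog of Sesn1, which was under 1 FPKM in both groups, with 0.196 FPKM in C26m2-bearing muscle and 0.909 FPKM in healthy CD2F1 muscle. It was 4.64-fold lower. At 1 FPKM or more, 0910001L09Rik (Lamtor4, a Ragulator subunit) fell 1.87-fold and Wdr59, of the GATOR complex, 1.73-fold in C26m2.

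The Vps genes that were listed belong to several complexes, and each complex was represented by rises. Vps11, Vps16 and Vps33a encode the core that the HOPS and CORVET tethers of endosomes and lysosomes share. Vps16 had 34.9 FPKM in 4T1-bearing muscle and 12.9 FPKM in healthy Balb/c muscle, and 25.7 FPKM in C26m2-bearing muscle and 12.5 FPKM in healthy CD2F1 muscle. Vps11 had 18.8 against 9.26 FPKM in the 4T1 comparison and 15.7 against 9.75 FPKM in the C26m2 comparison. Vps33a was listed in C26m2, with 25.5 against 15.2 FPKM. The core genes thus rose between 1.61-fold and 2.70-fold where listed. In the authors' deposited tables Vps16 passed at q of 0.028 and 0.0371, so at a threshold of 0.01 it would be called in neither table.

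Vps54, a subunit of the GARP tether of endosome-to-Golgi traffic that is mutated in the wobbler mouse, rose most among the Vps genes. It had 28.7 FPKM in 4T1-bearing muscle and 8.59 FPKM in healthy Balb/c muscle, a 3.34-fold rise, and 32.4 FPKM in C26m2-bearing muscle and 10.4 FPKM in healthy CD2F1 muscle, a 3.10-fold rise. Its q-value was the smallest of each of the authors' deposited tables, a value shared by 39.8% of listed genes in 4T1 and 42.6% in C26m2. The ESCRT-I genes Vps37a and Vps37c rose less, Vps37a with 48.5 against 26.3 FPKM in C26m2 and Vps37c with 23.7 against 14.0 FPKM in 4T1 and 13.9 against 9.05 FPKM in C26m2. The retromer gene Vps26a, listed in C26m2, had the smallest Vps rise, with 32.2 against 22.7 FPKM and a q-value of 0.0468 in the authors' deposited table. Vps72 carries the family symbol through its yeast relative, but its product is a histone chaperone of chromatin remodelling complexes. It had 54.2 against 22.3 FPKM in the 4T1 comparison and 32.6 against 21.6 FPKM in the C26m2 comparison. Without it the listed Vps genes were 4 of 4 higher in 4T1 and 7 of 7 in C26m2.

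ESCRT genes under other symbols went the same way, with 6 of 7 (85.7%) listed higher in 4T1 and 10 of 11 (90.9%) in C26m2, from a list of 21. Of all listed genes, 53.1% were higher in 4T1 and 58.9% in C26m2, and of those with a mean of 10 FPKM or more, 63.2% and 72.5%. Hgs, which starts the ESCRT pathway by binding ubiquitinated cargo on endosomes, had 72.1 FPKM in 4T1-bearing muscle and 6.89 FPKM in healthy Balb/c muscle, and 68.9 FPKM in C26m2-bearing muscle and 5.88 FPKM in healthy CD2F1 muscle. The Vps37 partner gene Ubap1 had 78.9 against 28.6 FPKM in the 4T1 comparison and 67.4 against 23.2 FPKM in the C26m2 comparison. The lower gene was Fam125b (MVB12B, also ESCRT-I), with 5.99 against 11.3 FPKM in the 4T1 comparison and 5.50 against 10.7 FPKM in the C26m2 comparison. Of 30 genes of endosomal phosphoinositide kinases, WASH and COMMD complexes, 7 were listed in 4T1 (5 higher, 2 lower, 71.4% higher) and 15 in C26m2 (13 higher, 2 lower, 86.7% higher). Uvrag, a subunit of the class III phosphoinositide 3-kinase of endosomes, rose 6.12-fold in 4T1 and 4.33-fold in C26m2. The WASH subunit gene D6Wsu116e (Fam21) rose 4.21-fold and 3.60-fold. Commd10 and Commd5 were the lower ones in both tables.

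Sorting nexins bind endosomal phosphoinositides. Snx2 and Snx1 encode proteins that work with retromer. Snx2 had 20.1 FPKM in 4T1-bearing muscle and 9.89 FPKM in healthy Balb/c muscle, and 19.1 FPKM in C26m2-bearing muscle and 9.58 FPKM in healthy CD2F1 muscle, close to equal rises. Snx1 was listed in C26m2, with 8.72 against 5.01 FPKM. Snx8 rose 2.07-fold in 4T1 and 1.60-fold in C26m2. Snx13, the most abundant listed nexin in both models, had 24.5 against 12.7 FPKM in 4T1 and 19.8 against 11.9 FPKM in C26m2, and its relative Snx19 had 13.5 against 8.71 FPKM in C26m2.

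Snx10, a small nexin gene whose loss in humans causes osteopetrosis, was among the few members with the larger ratio in C26m2. It had 8.29 FPKM in C26m2-bearing muscle and 2.33 FPKM in healthy CD2F1 muscle, a 3.56-fold rise, and 3.09 FPKM in 4T1-bearing muscle and 1.56 FPKM in healthy Balb/c muscle, a 1.99-fold rise. In the authors' deposited tables its q-value was 0.000319 in C26m2 and 0.0474 in 4T1. Snx7 was listed in 4T1 alone, with 6.70 FPKM in 4T1-bearing muscle and 1.45 FPKM in healthy Balb/c muscle. Snx20, which binds the selectin ligand of white blood cells, was near the lower end of measured levels, with 0.560 FPKM in 4T1-bearing muscle and 0.0916 FPKM in healthy Balb/c muscle, and it stood beside the neutrophil and macrophage markers given above, whose part in its value was not tested. Lower nexins were Snx32, with 1.18 against 3.31 FPKM in 4T1 and 1.80 against 3.73 FPKM in C26m2, Snx24 in 4T1 with 3.59 against 8.11 FPKM, and Snx18 and Snx30 in C26m2 with 2.05 against 3.19 FPKM and 0.420 against 0.910 FPKM. All 4 were under 10 FPKM in every group that lists them.

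**Figure D3:**
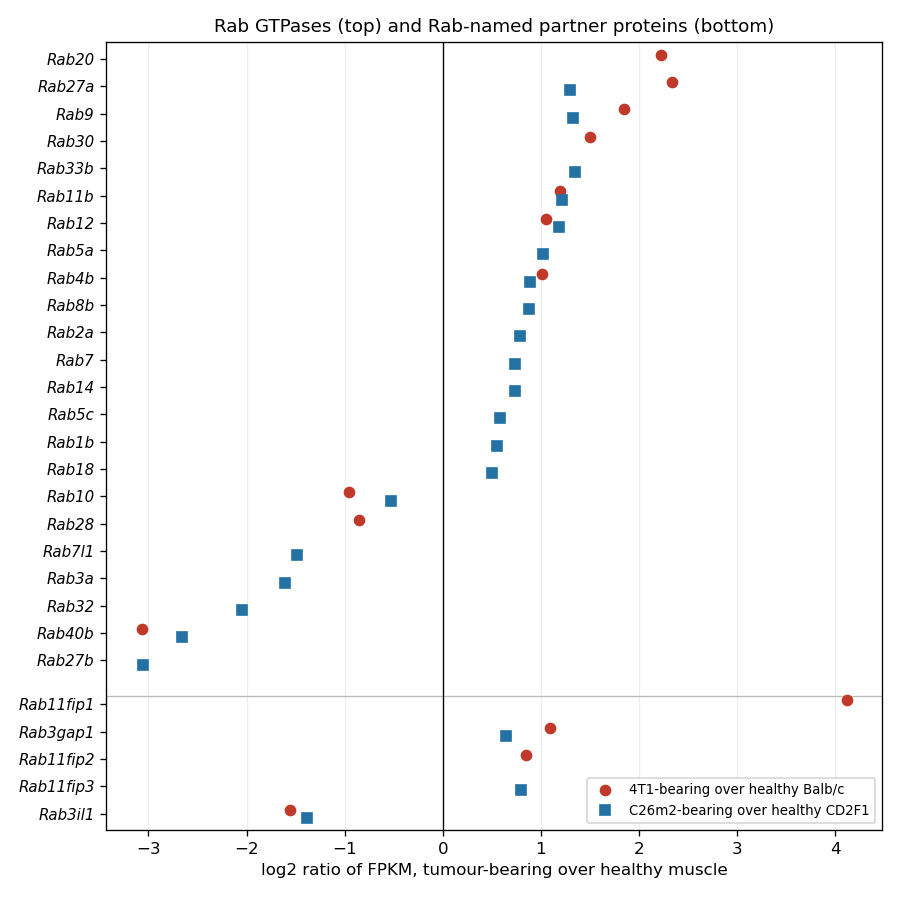
Log2 ratio of group FPKM, tumour-bearing over healthy muscle, for each listed Rab GTPase (upper block) and Rab-named partner protein (lower block), as circles for 4T1 and squares for C26m2; a missing symbol means that the table does not list the gene. Rab GTPases assigned here to endosomes, ER and Golgi lie right of 0, while Rab40b, Rab27b, Rab32 and Rab3a lie furthest left.

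Rab GTPases assigned here to the endosome and lysosome route, a grouping made after the values were known, were higher wherever they were listed. Rab9, which returns mannose-6-phosphate receptors from late endosomes to the Golgi, had 42.5 FPKM in 4T1-bearing muscle and 11.9 FPKM in healthy Balb/c muscle, a 3.58-fold rise. In the other model Rab9 had 27.4 FPKM in C26m2-bearing muscle and 10.9 FPKM in healthy CD2F1 muscle, a 2.50-fold rise. Rab12, which sends the transferrin receptor from recycling endosomes to lysosomes, was the most abundant of the listed Rabs in tumour-bearing muscle of each model. Rab12 had 201 FPKM in 4T1-bearing muscle and 97.2 FPKM in healthy Balb/c muscle, and 269 FPKM in C26m2-bearing muscle and 118 FPKM in healthy CD2F1 muscle. Rab7, the late endosome Rab that recruits HOPS, was listed in C26m2 only, with 207 FPKM in C26m2-bearing muscle and 124 FPKM in healthy CD2F1 muscle. Together the late endosome and lysosome Rabs were higher in 2 of 2 listed cases in 4T1 and in 3 of 3 in C26m2.

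On early and recycling endosomes the direction was the same, with 3 of 3 listed genes higher in 4T1 and 5 of 5 in C26m2. Rab11b, of recycling endosomes, had 95.0 FPKM in 4T1-bearing muscle and 41.4 FPKM in healthy Balb/c muscle, and 75.5 FPKM in C26m2-bearing muscle and 32.6 FPKM in healthy CD2F1 muscle. Rab4b, of fast recycling, rose 2.01-fold in 4T1 and 1.86-fold in C26m2. The early endosome genes Rab5a and Rab5c and the Golgi-to-endosome gene Rab14 were listed in C26m2, Rab5a with 52.9 against 26.1 FPKM, Rab5c with 25.0 against 16.8 FPKM and Rab14 with 76.2 against 45.8 FPKM. Rab20, of phagosomes and endosomes, was listed in 4T1, with 4.65 against 0.993 FPKM. These roles were assigned from general knowledge after the values were known, and all lower Rab GTPases were placed in other roles. The counts by role may follow from that sorting and are no test. Of all listed genes, 53.1% were higher in 4T1 and 58.9% in C26m2. Of listed genes with a mean of 10 FPKM or more, 63.2% and 72.5% were.

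Rabs assigned to the ER and Golgi rose as well, chiefly in the C26m2 table. Rab2a had 188 FPKM in C26m2-bearing muscle and 109 FPKM in healthy CD2F1 muscle, and Rab1b, which carries cargo from ER to Golgi, had 93.9 FPKM in C26m2-bearing muscle and 64.0 FPKM in healthy CD2F1 muscle. Rab18, of the ER and of lipid droplets, had 104 against 73.5 FPKM, the smallest rise of a Rab. Rab33b, a Golgi Rab that binds the autophagy protein ATG16L1, had 7.90 against 3.11 FPKM, and Rab30, also of the Golgi, was listed in 4T1 with 3.74 against 1.33 FPKM. For Rab18, Rab1b, Rab5c and Vps26a the log2 ratio in C26m2 (0.50 to 0.58) was smaller than any in the 4T1 table, whose smallest absolute log2 ratio was 0.72, so no gene with a change of that size was listed in 4T1.

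Exocytic and tissue-restricted Rabs went both ways. Rab10, which carries the glucose transporter GLUT4 to the surface in fat cells, was the most abundant of the listed Rabs in healthy muscle of each strain and fell. It had 81.5 FPKM in 4T1-bearing muscle and 158 FPKM in healthy Balb/c muscle, and 100.3 FPKM in C26m2-bearing muscle and 145 FPKM in healthy CD2F1 muscle. In the authors' deposited tables its q-values were 0.0289 and 0.0301. Rab8b, also of exocytosis, rose in C26m2, with 6.61 against 3.58 FPKM. Rab3a, of synaptic vesicles, fell in C26m2, with 11.4 FPKM in C26m2-bearing muscle and 34.9 FPKM in healthy CD2F1 muscle. Rab28, a Rab known from photoreceptor cilia, fell in 4T1, with 31.9 against 57.7 FPKM.

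Rab40b, whose product carries a SOCS box and joins a cullin-5 ubiquitin ligase, had the largest fall of any listed member in 4T1. It had 1.18 FPKM in 4T1-bearing muscle and 9.88 FPKM in healthy Balb/c muscle, an 8.40-fold fall, and 1.84 FPKM in C26m2-bearing muscle and 11.6 FPKM in healthy CD2F1 muscle, a 6.30-fold fall. Rab27a, which docks lysosome-related granules of white blood cells and pigment cells at the membrane, rose but was low in all 4 groups, with 1.95 FPKM in 4T1-bearing muscle against 0.386 FPKM in healthy Balb/c muscle and 0.904 FPKM in C26m2-bearing muscle against 0.369 FPKM in healthy CD2F1 muscle. Its close relative Rab27b fell in C26m2, with 0.050 against 0.415 FPKM. Rab32 and Rab7l1 (now Rab29), both of lysosome-related organelles, fell in C26m2, Rab32 with 0.181 against 0.747 FPKM and Rab7l1 with 0.979 against 2.74 FPKM. Apart from Rab40b, these granule Rabs were under 3 FPKM in every group that lists them. Neutrophil markers were higher in both models and macrophage markers moved as given above; their part in these values was not tested.

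Among partner proteins, Rab3gap1, which switches Rab3 off and Rab18 on, rose 2.14-fold in 4T1, with 21.0 FPKM in 4T1-bearing muscle and 9.81 FPKM in healthy Balb/c muscle, and 1.56-fold in C26m2, with 16.5 FPKM in C26m2-bearing muscle and 10.5 FPKM in healthy CD2F1 muscle. The Rab11 effector genes each appeared in 1 table, Rab11fip2 in 4T1 with 6.56 against 3.65 FPKM and Rab11fip3 in C26m2 with 28.2 against 16.2 FPKM. Rab11fip1 had the largest ratio of all members, but at 0.408 FPKM in 4T1-bearing muscle and 0.0235 FPKM in healthy Balb/c muscle and a q-value of 0.037 in the authors' deposited table. With 1 FPKM added to both values its log2 ratio was 0.46. Rab3il1, an exchange factor gene, fell 2.94-fold in 4T1 and 2.60-fold in C26m2 and was under 3 FPKM in every group.

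Rab regulators under other symbols rose in most listed cases, 17 of 20 (85%) in 4T1 and 15 of 16 (93.8%) in C26m2, from a list of 39. Tbc1d15, a GTPase-activating protein gene for Rab7, had 88.6 FPKM in 4T1-bearing muscle and 11.4 FPKM in healthy Balb/c muscle, and 78.0 FPKM in C26m2-bearing muscle and 11.4 FPKM in healthy CD2F1 muscle. Tbc1d17, its relative, had 76.5 against 19.2 FPKM in 4T1 and 68.1 against 26.2 FPKM in C26m2. Plekhm2, which links lysosomes to kinesin, rose 3.01-fold in 4T1 and 3.94-fold in C26m2. Tbc1d1, a GTPase-activating protein gene of muscle for the Rabs of GLUT4 vesicles, fell in 4T1, with 23.6 FPKM in 4T1-bearing muscle and 87.6 FPKM in healthy Balb/c muscle. Chm, which presents Rabs for prenylation, fell 1.98-fold in 4T1, and Rabif fell 1.66-fold in C26m2. Of 37 SNARE genes, 11 were listed in each table, 7 (63.6%) higher in 4T1 and 9 (81.8%) higher in C26m2, with Napb up 6.37-fold and 6.27-fold and Vamp1 down 4.18-fold and 2.75-fold. Bet1l, of Golgi traffic, rose 3.39-fold and 3.69-fold, Snap47 fell 2.04-fold in 4T1, and Snap23, of fusion at the surface, fell 1.55-fold in C26m2. Of 32 coat and mannose-6-phosphate sorting genes, 8 of 12 listed were higher in 4T1 and 10 of 15 in C26m2, 66.7% in each. There Ap3b1, of the adaptor that sends cargo to lysosomes, rose 3.26-fold and 2.85-fold, while the sorting receptor gene Sort1 fell 2.50-fold and 4.06-fold and the neuronal dynamin gene Dnm1 fell 7.99-fold and 6.86-fold. Ap3d1, of the same adaptor as Ap3b1, rose 2.71-fold in 4T1, the clathrin light chain gene Cltb rose 2.61-fold in C26m2, and the Golgi adaptor gene Gga2 fell 2.66-fold in 4T1. The shares of higher genes on these and the other gene lists are to be read beside the 53.1% of all listed genes that were higher in 4T1 and the 58.9% in C26m2.

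**Figure D4:**
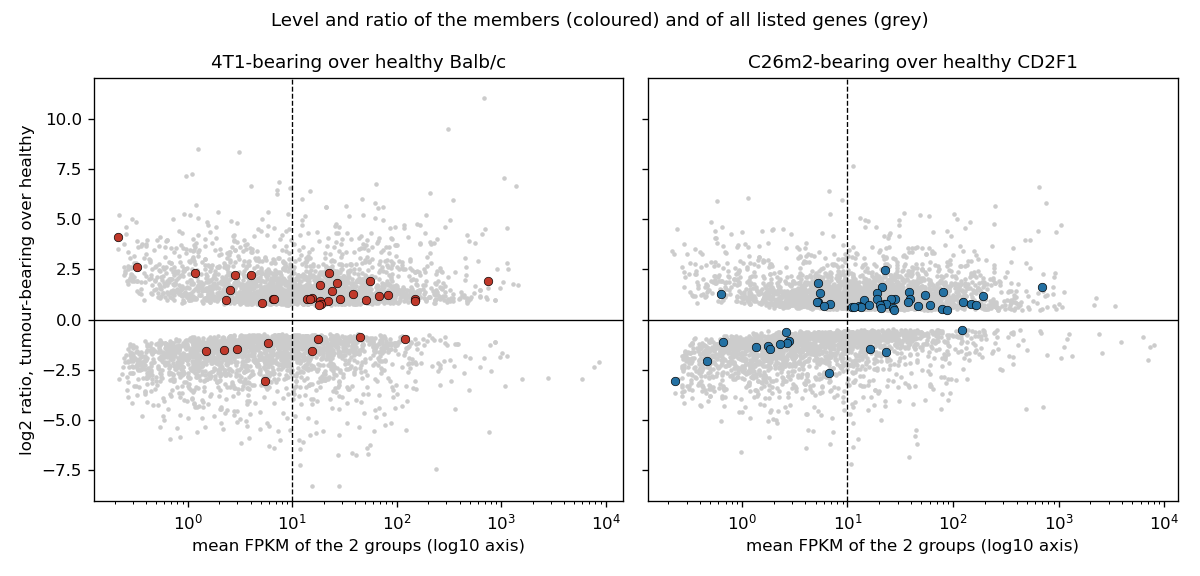
Mean FPKM of the tumour-bearing and healthy group (log10 axis) against the log2 ratio for each listed gene in 4T1 (left) and C26m2 (right), members coloured and all listed genes grey, with a dashed line at 10 FPKM. Members right of the dashed line lie mostly above 0, 20 of 24 in 4T1 and 32 of 35 in C26m2.

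Direction went with the mean level over both groups. That mean contains the tumour-bearing value, so a rise can itself carry a gene past 10 FPKM. Atp6v1h, Vps54, Vps11, Rab3gap1 and Snx2 had 7.47 to 9.89 FPKM in healthy Balb/c muscle and passed only through 4T1-bearing muscle. Ctsc, a lower member, passed only through healthy muscle. Of members whose mean over the 2 groups was 10 FPKM or more, 20 of 24 (83.3%) were higher in 4T1 and 32 of 35 (91.4%) in C26m2. Of members under 10 FPKM, 10 of 15 (66.7%) were higher in 4T1 and 7 of 18 (38.9%) in C26m2. The same split over all listed genes gave 63.2% at 10 FPKM or more against 45.1% under it in 4T1, and 72.5% against 46.7% in C26m2. Over all listed genes, too, those with the larger mean were more often higher. The exceptions among abundant members in C26m2 were Ctsc, Rab10 and Rab3a, and in 4T1 they were Ctsc, Rab10, Rab28 and Atp6v0e2. This level split was chosen after the values were seen and was not tested. It does not show that direction depends on the level in healthy muscle.

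Of the 63 members, 29 were listed in both models. Of the 39 members listed in 4T1, 29 (74.4%) were in the C26m2 table too, and they were 54.7% of the 53 members listed there. Over all listed genes the shared part was 72.4% of those in 4T1 and 64.9% of those in C26m2, so sharing among members was near the general share in 4T1 and below it in C26m2. All 29 shared members moved the same way in both models, with 23 higher and 6 lower (Ctsc, Ctso, Rab10, Rab3il1, Rab40b and Snx32), where 99.2% of all shared genes did. The 4T1 and C26m2 comparisons share no library.

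**Figure D5:**
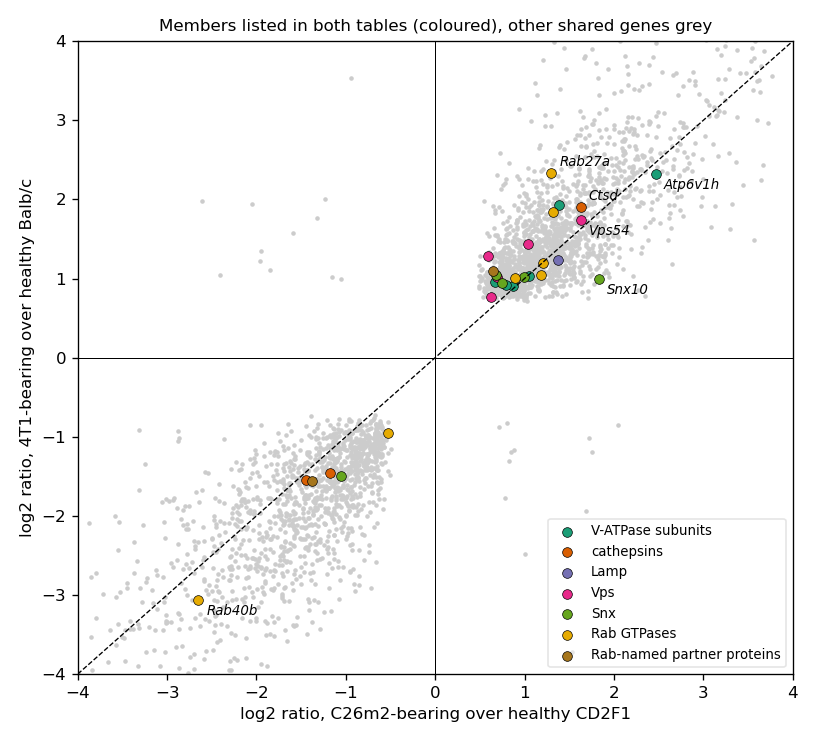
Log2 ratio in C26m2 (horizontal) against that in 4T1 (vertical) for the 29 members listed in both tables, coloured by family, with other shared genes in grey, a dashed line of equal ratios and both axes ending at 4 on the log2 scale. All 29 members lie in the quadrants of equal sign, and 23 lie further from 0 in 4T1.

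Ratios were the larger in 4T1 for 23 of the 29 shared members (79.3%), as they were for 71.7% of all shared genes. The median absolute log2 ratio of the shared members was 1.20 in 4T1 and 1.05 in C26m2, and the median absolute difference between models was 0.28. The widest gaps were those of Rab27a, with log2 ratios of 2.34 in 4T1 and 1.29 in C26m2, of Snx10, with 0.99 and 1.83, and of Vps72, with 1.28 and 0.60. The difference between models was not tested, since the tables hold no spread. Across the 29 shared members Pearson's r of the log2 ratios was 0.96 and Spearman's rho 0.79, a description over genes that were all selected for a change.

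Of the 10 members listed in 4T1 alone, 7 were higher and 3 lower (Atp6v0e2, Rab28 and Snx24). Of the 24 listed in C26m2 alone, 16 were higher and 8 lower (Ctsk, Ctss, Rab27b, Rab32, Rab3a, Rab7l1, Snx18 and Snx30). Their median absolute log2 ratio was 0.84, and 6 of the 24 had a ratio smaller than any in the 4T1 table. A gene listed in a single table is not shown to differ between the models.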

How the data were processed

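RNA sequencing measured tibialis anterior muscle in 8 libraries, 2 per group. Per the submitters' processing notes the tools were TopHat2 2.1.0, Cufflinks 2.2.1 and Cuffdiff, with build NCBIM37; the sources used here do not name the annotation, the scaling between libraries or the strand setting, so reads of overlapping genes and near-identical paralogs cannot be told apart. The authors deposited FPKM, 1 value per group, for called genes of each comparison. The deposited log2 fold change equals the log2 ratio of these values to within 1.4e-05, so no pseudocount was in it. Each gene's p-value and q-value are as the authors deposited them from Cuffdiff. The labels name no animals, so these p-values may measure technical spread. The number of genes tested was taken as the median of q times rank over p.

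Members, families, counts and medians were computed in Python 3.11.15 with pandas 2.3.3, and tested on simulated data. The members, the 9 other gene lists and the 5 marker lists were chosen with earlier results of these data known. Named were all listed members of families with 12 or fewer listed, up to 6 rises and 6 falls of larger ones, and members at 100 FPKM or more; other Rab genes were added after their values were seen. Of each other list, up to 2 rises and 2 falls per table are named, the largest among genes at 1 FPKM or more in either group, with a few genes added after their values were seen. No set test was run. Symbols matched the reference table (GRCm38.p6) for 62 of 63 members as written and Rab7l1 as a synonym. Alternatives were a q of 0.01, a minimum of 1 FPKM, a minimum absolute log2 ratio of 1 and a pseudocount of 1.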

Additional observations from a re-analysis of the deposited data

How the results depend on the processing

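None of the alternatives could turn a gene's direction, since they only drop genes or add a constant to both values. Of 96 counts compared with a stricter q, a minimum FPKM or a minimum ratio, 74 stayed within 1.5 times. At q of 0.01 or less, higher members in 4T1 numbered 17 in place of 30, with 3 V-ATPase subunits, 1 cathepsin, 3 Vps, 3 Snx and 1 partner protein, while lower V-ATPase subunits numbered 0 and lower Rab GTPases 1. In C26m2 that setting left 3 higher Vps genes, 9 higher Rab GTPases, 1 higher partner protein and 1 lower Snx gene. With an absolute log2 ratio of 1 or more, 4T1 kept 3 higher and 0 lower V-ATPase subunits, 1 higher cathepsin and 1 lower Rab GTPase. In C26m2 it left 15 higher members in place of 39, with 3 V-ATPase subunits, 2 Vps, 1 Snx, 6 Rab GTPases and 0 partner proteins, and 12 lower members in place of 14, with 2 Snx and 5 Rab GTPases. The share higher in C26m2 was then 55.6% in place of 73.6%, and Snx genes were mostly lower. A minimum of 1 FPKM moved no count by over 1.5 times. With a pseudocount of 1, 12 of 92 member log2 ratios shrank by over 1.5 times, all of genes under 4 FPKM in each group. Fewer genes pass each stricter setting by its construction. Leaving out a replicate was not run, as values are per group. No paired analysis was possible because the columns carry group values and no replicate numbers.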
